A study of Homo sapiens with 11 samples.

Results

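The genes described here are the zinc finger genes of human chromosome 19, meaning the 235 coding entries (RefSeq identifiers beginning NM_) on that chromosome whose symbol is ZNF followed by a number, out of 23287 gene entries in all. Another 267 coding ZNF genes lay on other chromosomes, and chromosome 19 held 1110 other coding genes. The series holds RNA-seq of the established human embryonic stem cell lines H1 and H7, with 11 groups of 1 library each. In 9 of them the cells had been infected with a lentivirus carrying a short hairpin RNA (shRNA) 5 days before collection. The shRNAs were pCCNE1, against an alternative CCNE1 transcript found in primates, uCCNE1, labelled as a knockdown without further detail, and a control; CCNE1 encodes cyclin E1. Each shRNA was used in 3 cultures, namely H7 in the naive medium 5iLA, H1 in the naive medium t2iGo, and primed H1. The remaining groups were untreated H7 in 5iLA and untreated primed H7, given in a table of their own. Cell line and culture cannot be told apart between 5iLA H7 and either H1 culture, whereas t2iGo against primed stays within H1 and the untreated pair stays within H7.

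C2H2 zinc finger proteins read DNA through arrays of small zinc-binding modules, and many of them carry a KRAB domain that recruits the corepressor TRIM28 and, through it, the histone methyltransferase SETDB1. In pluripotent cells this machinery is known for silencing transposable elements. On chromosome 19 such genes lie in clusters that grew by tandem duplication, so neighbours are often close relatives.

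Coding sequence was found for 234 of the 235 genes, and 232 of these encode at least 3 C2H2 fingers, with a median of 12 and a range of 0 to 39. A KRAB-like stretch was found in 191 and not in 43. The 235 genes fell into 16 blocks when a new block was begun at each gap of over 1 Mb between neighbours. Because duplicated genes share sequence, and the counting of shared reads and of strand is not given in the sources used here, values of close relatives are uncertain, as are those of the read-through entries ZNF559-ZNF177 and ZNF816-ZNF321P.

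Values were RPKM (reads per kilobase of transcript, scaled to library depth). Library depth was estimated from the size of 1 read in the low values, in units of 1000000 reads. The 5iLA H7 libraries had 11.25 to 16.69, those of t2iGo H1 6.338 to 13.91 and those of primed H1 18.81 to 23.35, with 24.6 for untreated 5iLA H7 and 13.18 for untreated primed H7. In the shRNA libraries 1 RPKM on a gene of the median length among these genes, 3147 bases, stood for 19.9 to 73.5 reads. The primed H1 libraries stood apart: their RPKM summed to between 341088 and 357685, against 139202 to 224314 in the other 6 shRNA libraries, and non-coding entries took 4.46% to 4.70% of it, against 16.8% to 30.9%. Over all 12116 genes tested, the median difference in log2(RPKM + 1) was -1.23 for 5iLA H7 minus primed H1 and -0.82 for t2iGo minus primed H1, so a difference near that median is no change relative to other genes. CCNE1 itself was at 8.38, 5.27 and 14.1 RPKM with pCCNE1, uCCNE1 and control shRNA in 5iLA H7, at 5.25, 5.38 and 9.65 in t2iGo H1, and at 10.5, 6.75 and 11.95 in primed H1.

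Markers set for each state bore out the label for 5iLA but not for t2iGo. The 12 naive pluripotency genes (such as DPPA3, DPPA5 and DNMT3L) summed to 858 to 1493 RPKM in 5iLA H7, 5.29 to 7.84 RPKM in t2iGo H1 and 4.19 to 5.57 RPKM in primed H1. The 12 primed genes summed to 28.3 to 56.6, 326 to 377 and 1730 to 2009 RPKM in those cultures. Endoderm genes reached 27.3 to 51.9 RPKM in t2iGo H1, against 0.978 to 3.79 in primed H1. Fibroblast genes held between 4.66 and 20.4 RPKM in 5iLA H7, 431 and 543 RPKM in t2iGo H1, and 356 and 448 RPKM in primed H1. Within that list VIM was at 292 to 346 RPKM in t2iGo H1 and 170 to 190 RPKM in primed H1. THY1, also on the primed list, was at 6.73 to 8.91 and 94.5 to 195 RPKM there. The list did not move as one, with COL3A1 at 47.3 to 137 and 0.180 to 1.08 RPKM, and COL1A2 at 1.41 to 2.31 and 23.2 to 29.6 RPKM. Trophoblast genes held at least 61.0 RPKM in every 5iLA H7 shRNA library and at most 12.6 RPKM in every t2iGo or primed H1 library. These genes did not move as one either. The highest in 5iLA H7 were CGA, at 39.5 to 51.9 RPKM, and TFAP2C, at 14.9 to 19.9 RPKM. KRT7 went the other way, at 0.217 to 0.539 RPKM in 5iLA H7 against 4.38 to 10.004 RPKM in primed H1. Of the 4 tested, 3 were higher and 1 lower by limma in 5iLA H7 minus primed H1. Untreated 5iLA H7 carried naive and primed markers, with 272 RPKM of naive and 244 RPKM of primed genes, against 2.29 and 813 RPKM in untreated primed H7. Its fibroblast genes held 256 RPKM and its trophoblast genes 47.8 RPKM, against 123 and 3.26 RPKM in untreated primed H7. In bulk RNA, fewer cells of a kind and less RNA per cell cannot be told apart.

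The summed level of the 235 genes was highest in the 5iLA H7 shRNA libraries of that table. With pCCNE1, uCCNE1 and control shRNA, the 5iLA H7 libraries held 1269, 1222 and 1443 RPKM of them. The t2iGo H1 libraries held 1129, 1182 and 1102 RPKM, and the primed H1 libraries 1022, 891 and 985 RPKM. The 3 cultures did not overlap. Without the 13 genes described next, chosen for being high in 5iLA, the other 222 held 1008, 981 and 1147 RPKM in 5iLA H7, 1128, 1181 and 1101 RPKM in t2iGo H1, and 1020.5, 889 and 984 RPKM in primed H1. The 5iLA and t2iGo ranges then overlapped, as did those of 5iLA and primed H1. Shares of the RPKM of all coding genes were taken for both sets, with the shRNAs in the same order. The 222 genes held 0.899%, 0.934% and 0.740% for 5iLA H7, which overlapped the 0.825%, 0.779% and 0.714% of t2iGo H1. Their primed H1 shares, 0.313%, 0.270% and 0.288%, lay below both. All 235 genes held 1.08% ± 0.13 in 5iLA H7, 0.774% ± 0.056 in t2iGo H1 and 0.291% ± 0.022 in primed H1 (SD, n = 3 shRNA libraries each). Untreated 5iLA H7 held 1068 RPKM and 0.696%, and untreated primed H7 779 RPKM and 0.627%. Over all entries, non-coding ones included, that order turned round, with 0.455% in untreated 5iLA H7 and 0.541% in untreated primed H7. Between 188 and 195 of these genes reached 1 RPKM in the 5iLA H7 libraries, 174 to 180 did so in t2iGo H1 and 172 to 181 in primed H1. In untreated 5iLA H7 it was 195 genes, and in untreated primed H7 166.

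**Figure D1:**
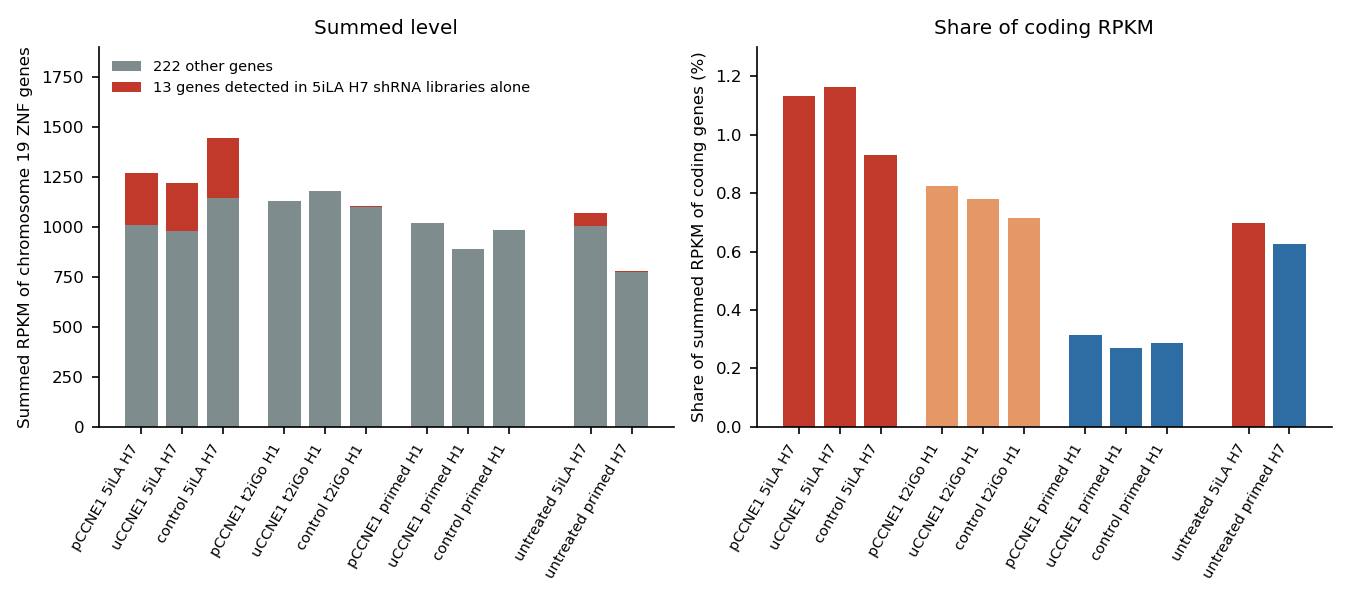
Summed RPKM of the 235 chromosome 19 ZNF genes (left) and their share of the RPKM of all coding genes in percent (right), 1 bar per library, with 5iLA H7, t2iGo H1 and primed H1 shRNA libraries followed by untreated 5iLA and primed H7. In the left panel the 13 genes at 1 RPKM or more in the 5iLA H7 shRNA libraries alone are stacked on the other 222, and they make up 19.7% to 20.6% of the sum there.

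A small set of these genes passed 1 RPKM in 5iLA alone among the shRNA libraries. Chosen by their levels, 13 of the 235 genes (5.53%) were at 1 RPKM or more in all 3 5iLA H7 shRNA libraries and under 1 RPKM in the other 6, a pattern met by 0.922% of all coding genes, 1.87% of ZNF genes elsewhere and 1.17% of the other coding genes of chromosome 19. The reverse patterns were met by 1 gene for t2iGo H1 (ZNF763) and by 5 for primed H1 (ZNF414, ZNF579, ZNF444, ZNF582 and ZNF446), or 2.13% of the 235 against 4.56% of all coding genes. With pCCNE1, uCCNE1 and control shRNA the sum of the 13 genes was 261, 240 and 297 RPKM in 5iLA H7 libraries, 1.16, 0.968 and 1.197 RPKM in t2iGo H1 and 1.59, 1.55 and 1.17 RPKM in primed H1. In the untreated H7 libraries, which played no part in choosing them, they summed to 64.8 RPKM in 5iLA and 1.91 RPKM in primed cells. There 11 of 13 were higher in 5iLA, 9 of them by a log2 difference of at least 1, beside 7.05% of all genes without a filter. Only 6 of the 13 had a mean of at least 1 RPKM in the untreated pair.

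ZNF729 was the most abundant of them and encodes the longest finger array of all 235 genes, with 39 fingers. It was at 70.5, 62.1 and 97.4 RPKM with pCCNE1, uCCNE1 and control shRNA in 5iLA H7, at 0.0791, 0.0523 and 0.269 RPKM in t2iGo H1, and listed at 0 in all 3 primed H1 libraries. The untreated libraries had 18.8 RPKM in 5iLA and 0.0942 RPKM in primed H7. Its log2 difference between 5iLA H7 and t2iGo H1 was 6.08 ± 0.17 (SE), given as a description because the levels in 5iLA chose the gene.

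ZNF208, with 36 fingers, was at 63.0, 65.4 and 56.3 RPKM in 5iLA H7 and at 0.193, 0.0536 and 0.175 RPKM in t2iGo H1, for the shRNAs in the same order. ZNF676 was at 45.7, 40.3 and 62.7 RPKM in 5iLA H7 and at 0.158, 0.0348 and 0.0475 RPKM in t2iGo H1. Both were listed at 0 in all primed H1 libraries, so the groups were far apart with no overlap. Untreated 5iLA H7 had 14.9 RPKM of ZNF208 and 11.6 RPKM of ZNF676, against 0.0385 and 0.0752 RPKM in untreated primed H7.

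ZNF257, ZNF98, ZNF492, ZNF99 and ZNF726 lay in the same block as these 3, so 8 of the 13 came from block 5 (ZNF101 to ZNF254, 30 genes). ZNF257 was at 18.04, 14.8 and 19.7 RPKM in 5iLA H7 against at most 0.0859 in t2iGo H1, and ZNF98 at 15.8, 15.3 and 17.99 RPKM against at most 0.129. In untreated H7 they stood at 5.04 and 4.40 RPKM in 5iLA and at 0.0206 and 0.0222 RPKM in primed cells. Outside that block, ZNF534 was at 13.2, 11.4 and 8.25 RPKM in 5iLA H7, at 0 to 0.0514 RPKM in t2iGo H1 and at 0 to 0.0259 RPKM in primed H1, while ZNF560 was at 5.17 to 6.02 RPKM in 5iLA H7 and at most 0.0499 RPKM elsewhere in that table. ZNF528 was at 3.77, 4.84 and 3.71 RPKM in 5iLA H7, 0.310 to 0.504 RPKM in t2iGo H1 and 0.133 to 0.292 RPKM in primed H1. ZNF585A and ZNF585B, at 1.54 to 3.06 RPKM in 5iLA H7, were the 2 that did not keep the direction in untreated H7, with 0.759 and 0.419 RPKM in 5iLA and 0.835 and 0.660 RPKM in primed cells.

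The 13 genes were chosen for their levels in the 5iLA H7 shRNA libraries, where the naive markers were high too. That both move together in that table follows from the choice, and the part of the markers in the result was not tested. Among libraries in 5iLA, the 13 genes were lowest in untreated H7, a library that played no part in choosing them. The naive marker sum was 272 RPKM there, against 858 to 1493 in the 5iLA H7 shRNA libraries, and its table may have been scaled separately. By Pearson correlation of log2 values over the 9 shRNA libraries, the genes most like ZNF729 were ZNF492, ZNF98 and ZNF676 (r at least 0.999), and those most like ZNF534 were ZNF99, ZNF208 and ZNF560 (r at least 0.996). With libraries in 3 cultures, such values describe the same step between 5iLA and the rest.

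**Figure D2:**
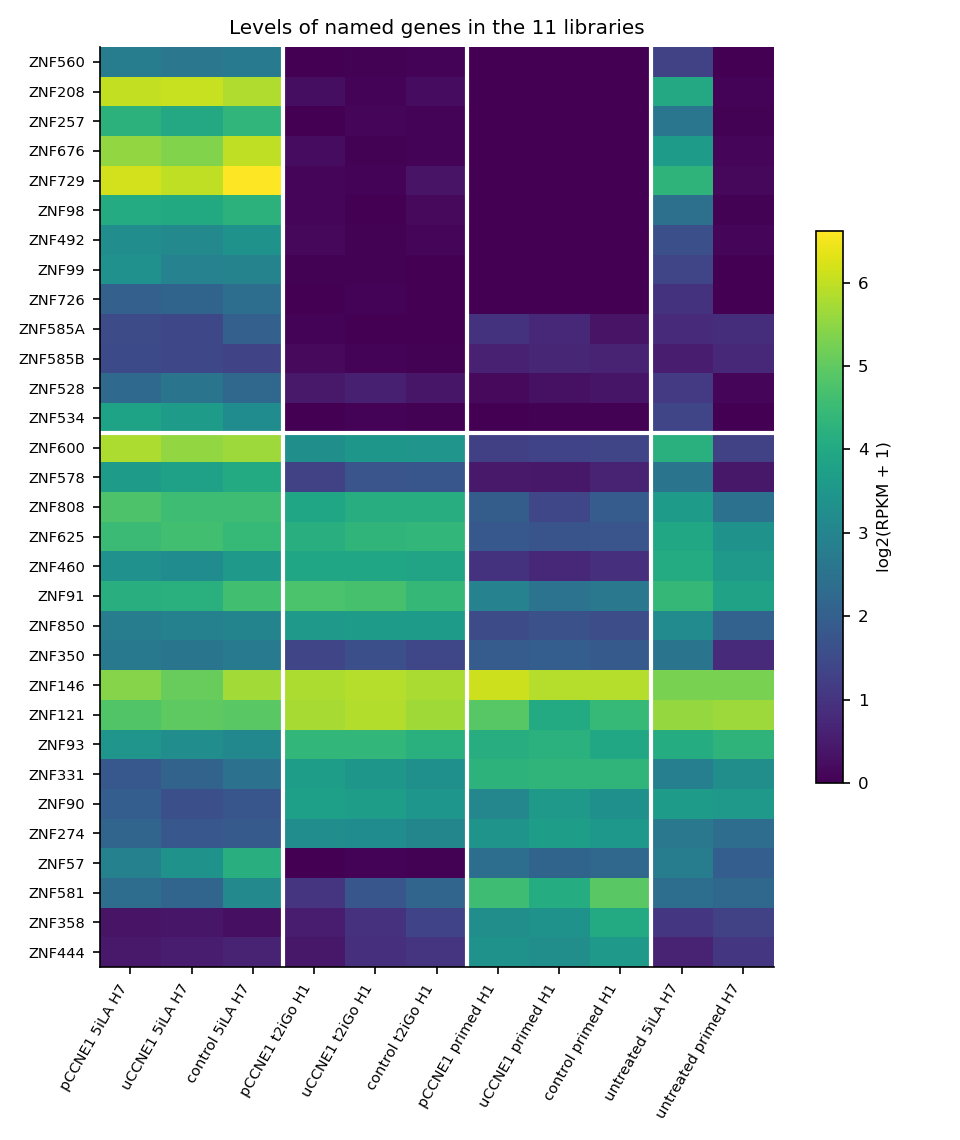
Heat map of log2(RPKM + 1) for named chromosome 19 ZNF genes (rows) in the 11 libraries (columns, 5iLA H7, t2iGo H1 and primed H1 shRNA libraries, then untreated 5iLA and primed H7). The 13 genes above the white line are bright in the 5iLA H7 shRNA libraries, of which ZNF729 reaches 97.4 RPKM, and dark in t2iGo H1 and primed H1.

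The promoters of 3 genes from this set and of ZNF91 and ZNF808, which have a broader pattern, are shown for comparison of their sequence and expression. They are 300 bases each from RefSeq (GRCh38.p14), 250 before and 50 after the start, written 5′ to 3′ on the gene's strand. Capitals mark CCGGAAG, the core letters of many ETS factor sites, or its reverse complement CTTCCGG. ZNF208 lies at chr19:22010894-22011193 on the minus strand, ZNF257 at chr19:22052234-22052533 on the plus strand, ZNF91 at chr19:23395422-23395721 on the minus strand, ZNF534 at chr19:52428898-52429197 on the plus strand and ZNF808 at chr19:52527418-52527717 on the plus strand.
ZNF208: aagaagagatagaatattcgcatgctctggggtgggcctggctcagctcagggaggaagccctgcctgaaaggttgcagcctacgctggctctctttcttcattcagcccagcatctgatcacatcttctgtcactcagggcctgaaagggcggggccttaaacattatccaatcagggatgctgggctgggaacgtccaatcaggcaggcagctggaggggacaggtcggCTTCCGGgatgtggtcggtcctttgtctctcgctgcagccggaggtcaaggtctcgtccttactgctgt
ZNF257: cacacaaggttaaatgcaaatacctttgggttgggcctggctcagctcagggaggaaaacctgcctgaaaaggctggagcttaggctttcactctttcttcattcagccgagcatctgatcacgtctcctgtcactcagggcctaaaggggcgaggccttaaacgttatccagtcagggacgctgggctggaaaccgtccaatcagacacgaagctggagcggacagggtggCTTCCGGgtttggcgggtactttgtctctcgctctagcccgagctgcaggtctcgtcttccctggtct
ZNF91: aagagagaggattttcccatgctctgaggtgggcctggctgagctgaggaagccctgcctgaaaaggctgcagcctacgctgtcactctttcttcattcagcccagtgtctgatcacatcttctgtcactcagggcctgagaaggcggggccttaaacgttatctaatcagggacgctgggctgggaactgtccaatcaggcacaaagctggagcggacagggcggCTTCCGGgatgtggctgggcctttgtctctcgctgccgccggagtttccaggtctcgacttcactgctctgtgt
ZNF534: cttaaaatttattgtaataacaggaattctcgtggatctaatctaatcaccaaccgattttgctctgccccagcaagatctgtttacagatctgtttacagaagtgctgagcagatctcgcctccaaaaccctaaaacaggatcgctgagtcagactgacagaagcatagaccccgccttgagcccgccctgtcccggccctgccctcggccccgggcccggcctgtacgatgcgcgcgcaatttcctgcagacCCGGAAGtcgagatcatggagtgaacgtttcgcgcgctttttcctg
ZNF808: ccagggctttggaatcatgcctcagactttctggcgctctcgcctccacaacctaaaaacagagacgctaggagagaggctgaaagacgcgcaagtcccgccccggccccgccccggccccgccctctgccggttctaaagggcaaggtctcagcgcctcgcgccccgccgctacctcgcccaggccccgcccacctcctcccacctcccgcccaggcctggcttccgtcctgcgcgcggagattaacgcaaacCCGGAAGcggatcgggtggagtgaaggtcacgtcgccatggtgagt
In a global alignment ZNF208 and ZNF257, both near 0 outside 5iLA, were 81.4% identical. ZNF91, which was expressed in all 11 libraries, was 86.1% identical to ZNF208 and 79.9% to ZNF257, and all 3 hold the motif between positions -24 and -18 from the start. ZNF534 and ZNF808, both of block 15, were 57.4% identical, against 51.5% to 53.6% for the pairs shown from different blocks, and hold it at position 4.

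The motif was more common among these genes than in the whole promoter table. CCGGAAG, on either strand, was in 93 of 206 promoters of chromosome 19 ZNF genes (45.1%), 35.3% of those of ZNF genes elsewhere, 12.8% of those of the other coding genes of chromosome 19 and 10.7% of all 27305 RefSeq promoters of the same length. TATAAA was in 1.94% of the chromosome 19 ZNF promoters and 11.95% of all. AAGATGGC, the letters of a YY1 site, was in 6.80% against 3.03%. Both strands were searched for each. Tested genes with and without CCGGAAG had median log2 differences of 0.01 and 0.08 for 5iLA H7 minus primed H1, 0.10 and 0.27 for t2iGo minus primed H1, and 0.31 each for untreated 5iLA minus primed H7. A match describes letters only, and no site was tested.

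The comparison of 5iLA H7 with primed H1 covered the 203 genes with a mean of at least 1 RPKM over the 9 shRNA libraries. By limma 75 were higher and 55 lower at an adjusted p under 0.05, beside 7.74% of all genes higher and 76.8% lower (84.6% in either direction). A gene high in 1 culture alone can pass that filter through it, as 20 of the 203 did, so the counts over 234 genes without a filter are given too, 78 higher and 63 lower, beside 8.56% and 57.8% of all genes. The median of the 203 was 0.08, which is 1.305 above the median of all genes, and 91.6% lay above that median. ZNF genes elsewhere had a median of -0.74 and the other coding genes of chromosome 19 one of -1.78. After each library was scaled to the same sum over coding genes, 171 were higher and 12 lower, beside 31.7% and 33.8% of all genes, with a median of 1.15 beside -0.04 for all genes. With the trend on transcript GC content taken out of each library instead, an alternative chosen after seeing the data, 58 were higher and 85 lower, beside 7.03% and 79.8% of all genes. With the median shift of each library taken out as well, 150 were higher and 9 lower, beside 28% and 35.1% of all genes.

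Genes listed at 0 in primed H1 led the rises, namely ZNF729, ZNF208, ZNF676 and ZNF257, and no fold is given for them. ZNF600 was measurable everywhere, at 54.4, 45.5 and 49.0 RPKM with pCCNE1, uCCNE1 and control shRNA in 5iLA H7, 8.87, 10.3 and 9.90 RPKM in t2iGo H1 and 1.38, 1.51 and 1.59 RPKM in primed H1. The cultures formed 3 separate steps. Its log2 difference was 4.34 ± 0.17 for 5iLA H7 minus primed H1, 2.10 ± 0.17 for t2iGo minus primed H1 and 2.24 ± 0.17 for 5iLA H7 minus t2iGo H1 (SE; limma, adjusted p = 4.18e-09, 1.06e-06 and 1.55e-06). Untreated 5iLA H7 had 17.4 RPKM and untreated primed H7 1.43 RPKM.

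Among the falls, ZNF331, an imprinted gene, was at 2.57, 3.27 and 4.52 RPKM in 5iLA H7, 12.1, 10.4 and 9.09 RPKM in t2iGo H1 and 18.3, 19.2 and 19.2 RPKM in primed H1. Its log2 difference for 5iLA H7 minus primed H1 was -2.18 ± 0.20, or -0.96 relative to all genes (limma, adjusted p = 1.46e-06). Untreated H7 had 6.30 RPKM in 5iLA and 8.69 RPKM in primed cells. ZNF274, which recruits SETDB1 to the ends of ZNF genes, was at 2.46 to 3.43 RPKM in 5iLA H7, 7.21 to 8.41 RPKM in t2iGo H1 and 9.82 to 11.79 RPKM in primed H1 (-1.61 ± 0.18 for 5iLA H7 minus primed H1, or -0.39 relative to all genes, and -1.23 ± 0.18 for 5iLA H7 minus t2iGo H1; limma, adjusted p = 4.79e-06 and 1.42e-04). In untreated H7 that order was not seen, with 5.27 RPKM in 5iLA and 4.19 RPKM in primed cells. ZNF358, ZNF444, ZNF580 and ZNF581 had log2 differences of -3.22, -2.86, -2.56 and -1.98 (limma, adjusted p at most 7.21e-06). The GC content of their transcripts was 62.1% to 69.1%, against a median of 42.4% over the 235 genes.

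**Figure D3:**
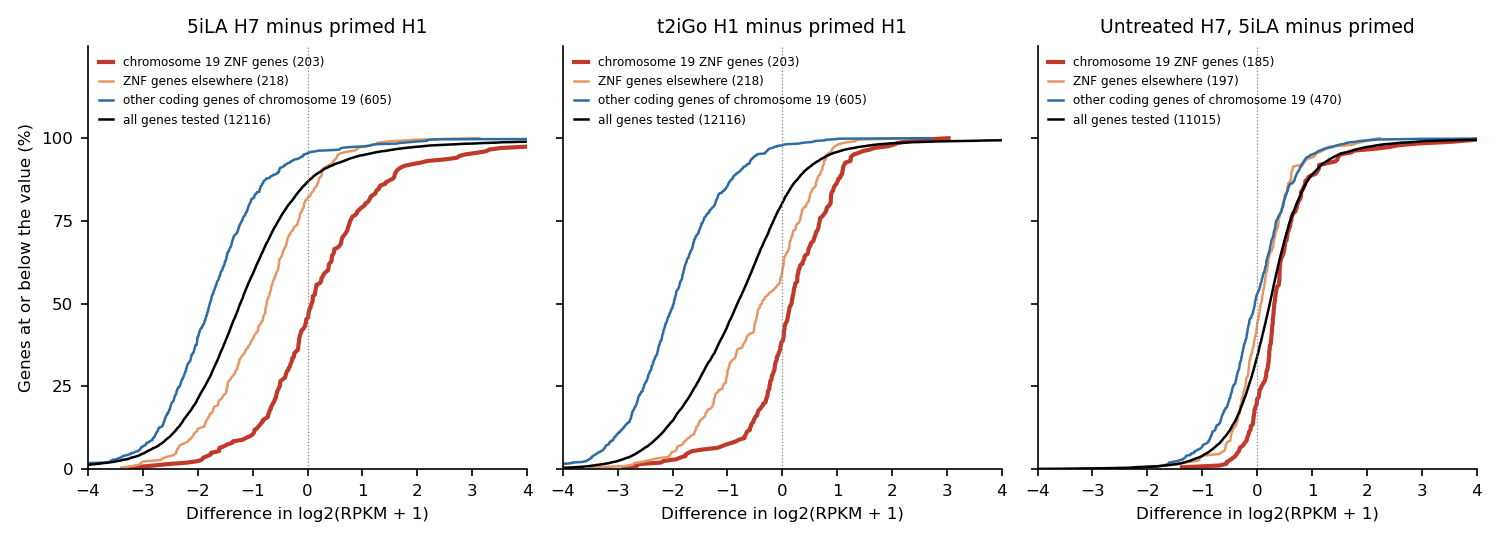
Cumulative distribution of the difference in log2(RPKM + 1) for chromosome 19 ZNF genes, ZNF genes elsewhere, other coding genes of chromosome 19 and all genes tested, in 5iLA H7 minus primed H1, t2iGo minus primed H1 and untreated 5iLA minus primed H7. The chromosome 19 ZNF curve lies right of that of all genes in the first 2 panels (medians 0.08 against -1.23 and 0.17 against -0.82) and close to it in the third (0.32 against 0.23).

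Within H1, the comparison of t2iGo with primed cells gave 72 of 203 genes higher and 35 lower by limma, beside 8.77% of all genes higher and 63% lower (71.8% in either direction). Without a filter the counts were 71 and 44 of 234, beside 7.82% and 47.5% of all genes. The median was 0.17, which is 0.99 above that of all genes, and 91.6% lay above it, whereas the medians were -0.37 for ZNF genes elsewhere and -1.98 for the other coding genes of chromosome 19. Scaled to the same sum over coding genes, 157 were higher and 11 lower, beside 40% and 29.8% of all genes, with a median of 1.002 beside 0.16. With the same GC trend taken out, 32 were higher and 89 lower, beside 5.78% and 73.9% of all genes, and the median was -0.35 beside -0.89. With the median shift of each library taken out as well the counts were 116 and 12, beside 24% and 28.6%.

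The largest rise was that of ZNF460, at 13.95, 13.9 and 13.6 RPKM with pCCNE1, uCCNE1 and control shRNA in t2iGo H1 and 0.946, 0.658 and 0.854 RPKM in primed H1. In 5iLA H7 it stood at 9.10, 8.23 and 10.9 RPKM. The log2 difference for t2iGo minus primed H1 was 3.03 ± 0.17 (limma, adjusted p = 1.16e-07). In untreated H7, however, 5iLA had 15.8 RPKM and primed cells 10.805 RPKM, so the gap was small there, and the primed levels of H1 and H7 come from separate tables.

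ZNF625 was at 17.1, 19.01 and 19.9 RPKM in t2iGo H1 and 2.53, 2.3001 and 2.33 RPKM in primed H1, a log2 difference of 2.53 ± 0.17 (limma, adjusted p = 3.43e-07). ZNF808, whose product binds MER11 elements, was at 13.8, 16.5 and 16.6 RPKM in t2iGo H1 and 2.89, 1.65 and 2.81 RPKM in primed H1 (2.29 ± 0.20; limma, adjusted p = 1.37e-06). Both were also high in 5iLA H7, at 20.5 to 23.7 and 22.5 to 26.5 RPKM. In untreated H7 the gaps were smaller, with 14.4 RPKM of ZNF625 and 11.3 RPKM of ZNF808 in 5iLA against 9.34 and 4.65 RPKM in primed cells.

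ZNF91, the repressor of SVA retrotransposons, was at 25.8, 24.8 and 20.3 RPKM in t2iGo H1, 16.9, 17.4 and 23.3 RPKM in 5iLA H7, and 6.59, 4.73 and 5.29 RPKM in primed H1. The t2iGo and 5iLA ranges overlapped and both lay above primed H1, with log2 differences from primed of 1.92 ± 0.21 and 1.62 ± 0.21 (limma, adjusted p = 6.12e-06 and 1.57e-05). ZNF611, whose product also binds SVA elements, rose by 1.59 ± 0.18 and 1.49 ± 0.18 in the same comparisons (limma, adjusted p = 1.04e-05 and 1.21e-05). ZNF93, the repressor of older LINE-1 elements, was at 17.3 to 19.8 RPKM in t2iGo H1, 7.47 to 9.87 RPKM in 5iLA H7 and 14.6 to 17.7 RPKM in primed H1. It fell by 0.85 in 5iLA H7 against primed H1 (limma, adjusted p = 6.28e-04), which is 0.38 above the median of all genes. For t2iGo minus primed H1 its difference was 0.21 ± 0.17 (limma, adjusted p = 0.288), also above the median of all genes, -0.82. Also among the 10 largest rises in t2iGo were ZNF850 at 2.03, ZNF440 at 1.68, ZNF442 at 1.46 and ZNF823 at 1.39 (limma, adjusted p at most 2.7e-04).

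ZNF57 and its neighbour ZNF77, at one end of the chromosome, were near 0 in t2iGo H1 and expressed in the other cultures. ZNF57 was at 0, 0.0527 and 0.0360 RPKM with pCCNE1, uCCNE1 and control shRNA in t2iGo H1, 6.45, 9.51 and 17.0 RPKM in 5iLA H7 and 4.30, 3.40 and 3.65 RPKM in primed H1. Its log2 difference was -2.21 ± 0.25 for t2iGo minus primed H1 and 3.44 ± 0.25 for 5iLA H7 minus t2iGo H1 (limma, adjusted p = 8.35e-06 and 8.64e-07). ZNF77 was at 0 to 0.0516 RPKM in t2iGo H1, 2.47 to 6.93 RPKM in 5iLA H7 and 1.64 to 3.02 RPKM in primed H1. ZNF506 was likewise at 0.260 to 0.482 RPKM in t2iGo H1, against 6.04 to 8.46 RPKM in 5iLA H7 and 2.71 to 4.33 RPKM in primed H1.

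The other 7 of the 10 largest falls were GC-rich genes without a KRAB-like stretch: ZNF581, ZNF358, ZNF444, ZNF574, ZNF414, ZNF580 and ZNF787. ZNF581 was at 1.01, 2.40 and 3.46 RPKM in t2iGo H1, 4.19, 3.44 and 7.65 RPKM in 5iLA H7 and 22.8, 16.1 and 29.2 RPKM in primed H1. Its lowest value rests on an estimated 8.32 reads, and untreated H7 had 4.29 RPKM in 5iLA and 3.62 RPKM in primed cells. Once the GC trend and the shift were taken out, ZNF580 was at 0.14 and ZNF787 at 0.39, so their direction turned. Across the 203 genes the difference fell with transcript GC content, with r = -0.55 for t2iGo minus primed H1 and -0.48 for 5iLA H7 minus primed H1, against -0.50 and -0.24 over all 11965 genes with a GC value, and -0.12 over the 185 genes of the untreated pair. Its part in these falls was not tested.

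The comparison of 5iLA H7 with t2iGo H1, in which medium and cell line cannot be told apart, gave 42 genes higher and 56 lower of 203 by limma, beside 14.9% of all genes higher and 40.1% lower (55% in either direction). Their median was -0.19, against -0.31 for all genes. Without the uCCNE1 libraries 35 were higher and 28 lower, beside 12.2% and 24.8% of all genes. Under median-ratio scaling 76 were higher and 23 lower, beside 30% and 27%. ZNF729, ZNF208, ZNF676, ZNF257 and ZNF98 had the largest differences, from 6.08 to 4.02, as a description of genes chosen by these levels. ZNF90 had the largest fall, at 2.92, 2.06 and 2.44 RPKM in 5iLA H7 and 12.3, 11.9 and 10.2 RPKM in t2iGo H1 (-1.85 ± 0.19; limma, adjusted p = 1.46e-05). It showed no such gap in untreated H7, with 11.3 RPKM in 5iLA and 10.96 RPKM in primed cells. ZNF562, ZNF43 and ZNF426 had differences of -1.654, -1.4951 and -1.353 (limma, adjusted p = 1.16e-05, 1.16e-04 and 4.86e-05).

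ZNF146, which encodes a protein made of fingers with no KRAB domain, had the highest mean of the 235 genes over the 9 shRNA libraries, with 41.6, 32.9 and 50.9 RPKM in 5iLA H7, 55.1, 57.8 and 53.8 RPKM in t2iGo H1 and 68.8, 58.2 and 57.8 RPKM in primed H1. Untreated 5iLA and primed H7 had 37.7 and 38.0 RPKM. ZNF121 was at 27.2 to 30.4 RPKM in 5iLA H7, 49.9 to 57.4 RPKM in t2iGo H1 and 15.6 to 28.98 RPKM in primed H1, where the 5iLA and primed ranges overlap.

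The untreated H7 pair compares 5iLA with primed cells of a single line, with 1 library each and no test. Of 185 genes with a mean of at least 1 RPKM, 21 were higher and 1 lower by a log2 difference of at least 1, beside 11% of all genes higher and 3.94% lower (15% in either direction). Without a filter it was 25 and 1 of 232, beside 7.05% and 2.58% of all genes. The median was 0.32 against 0.23 for all genes, 0.08 for ZNF genes elsewhere and -0.04 for the other coding genes of chromosome 19. The largest differences were those of ZNF729 at 4.17, ZNF208 at 3.94, ZNF676 at 3.56, ZNF600 at 2.92, ZNF257 at 2.56 and ZNF98 at 2.40. They were followed by ZNF578, at 4.83 RPKM in 5iLA and 0.345 RPKM in primed H7, a log2 difference of 2.12. The same gene was at 11.3, 12.8 and 15.6 RPKM in 5iLA H7 with the shRNAs, 1.42, 2.34 and 2.41 RPKM in t2iGo H1 and 0.374, 0.334 and 0.567 RPKM in primed H1.

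ZNF350, a partner of BRCA1 in repression, was at 4.81 RPKM in untreated 5iLA H7 and 0.768 RPKM in untreated primed H7. With the shRNAs it was at 5.44, 4.92 and 5.76 RPKM in 5iLA H7, 1.63, 2.04 and 1.64 RPKM in t2iGo H1 and 2.81, 2.91 and 2.66 RPKM in primed H1. The t2iGo minus primed H1 difference of -0.46 was 0.36 above the median of all genes. So 5iLA was the highest in both tables, by 0.75 ± 0.16 over primed H1 and 1.204 ± 0.16 over t2iGo H1 (limma, adjusted p = 0.00104 and 9.36e-05). ZNF229 at 1.76 and ZNF492 at 1.52 completed the 10 largest. The single gene lower by the threshold was ZNF559, at 0.953 RPKM in 5iLA and 4.04 RPKM in primed H7, which overlaps a read-through entry and is uncertain. It was at 3.54 to 4.76 RPKM in the 5iLA H7 shRNA libraries and 3.41 to 4.26 RPKM in primed H1. Next came ZNF43 at -0.68, ZNF135 at -0.56 and ZNF708 at -0.55.

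No library is shared between the untreated pair and the shRNA table. Across 184 genes tested in both, the untreated difference had a Pearson r of 0.75 with 5iLA H7 minus primed H1 and 0.15 with t2iGo minus primed H1, against 0.50 and 0.38 over all 10882 genes. The sign was the same for 59.2% and 58.2% of the 184, beside 44.2% and 45.8% of all genes. Signs were taken from values as deposited, with all-gene medians of -1.23 and -0.82 for the shRNA libraries but 0.23 for untreated H7. Such opposite shifts lower the share of all genes, so the gap cannot be read as a closer match of the 184. The 184 include 6 of the 13 genes chosen for being high in 5iLA, ZNF729 and ZNF208 among them, and r without these 6 is not given. These values are descriptions across genes, which are not independent. 

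**Figure D4:**
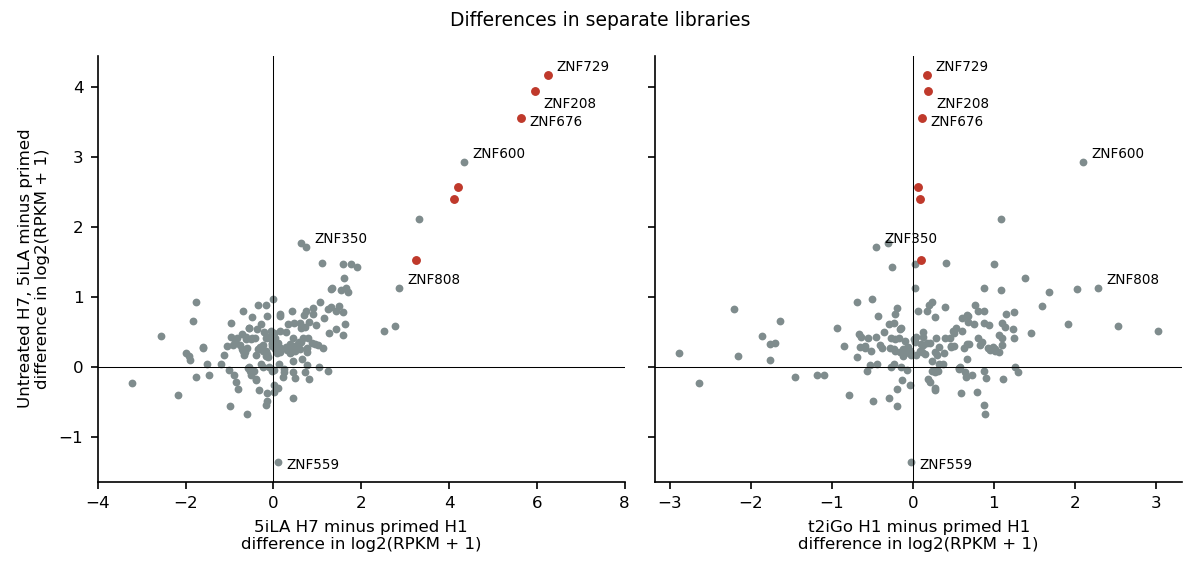
Difference in log2(RPKM + 1) between untreated 5iLA and primed H7 (vertical) against 5iLA H7 minus primed H1 (left) and t2iGo minus primed H1 (right), 1 point per chromosome 19 ZNF gene tested in both, with genes at 1 RPKM or more in the 5iLA H7 shRNA libraries alone in red. ZNF729, ZNF208 and ZNF676 lie at the top of both panels, at 4.17, 3.94 and 3.56 on the vertical axis, far right in the left panel and near 0 in the right one.

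The blocks differed in their counts, and blocks 2, 5, 9, 12, 15 and 16 held called genes of both directions in 5iLA H7 minus primed H1. In block 3 (ZNF653 to ZNF791, 25 genes), 18 of 21 tested genes were higher and 0 lower by limma in both 5iLA H7 and t2iGo H1 against the same primed H1 libraries, beside 7.74% and 8.77% of all genes higher, with medians of 0.97 and 1.06. Its summed level was 112, 127 and 138 RPKM with pCCNE1, uCCNE1 and control shRNA in 5iLA H7, 129, 130 and 115 RPKM in t2iGo H1 and 55.8, 41.1 and 49.1 RPKM in primed H1. The primed H1 libraries lay below all 6 others. Untreated H7 had 95.9 RPKM in 5iLA and 55.9 RPKM in primed cells, with a median difference of 0.59.

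Block 5, which holds ZNF729, had sums of 389, 362 and 452 RPKM in 5iLA H7, 218, 208 and 198 RPKM in t2iGo H1 and 152, 140 and 137 RPKM in primed H1, and of 233 and 166 RPKM in untreated 5iLA and primed H7. Block 15 (ZNF175 to ZNF331, 37 genes), with ZNF600, ZNF808 and ZNF534, summed to 318, 289 and 328 RPKM in 5iLA H7, 234, 246 and 238 RPKM in t2iGo H1 and 182, 160 and 176 RPKM in primed H1. Its untreated sums were 228 RPKM in 5iLA and 150.1 RPKM in primed H7. Block 16, the largest with 58 genes (ZNF628 to ZNF446), had lower sums in 5iLA H7 and t2iGo H1 than in primed H1, at 192, 186 and 205 RPKM in 5iLA H7, 197, 227 and 206 RPKM in t2iGo H1 and 267, 246 and 279 RPKM in primed H1. In untreated H7 it was higher in 5iLA, at 215 RPKM against 160 RPKM in primed cells, so the order differed from that in the shRNA table. Its medians of -0.34 and -0.12 against primed H1 lay above those of all genes.

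**Figure D5:**
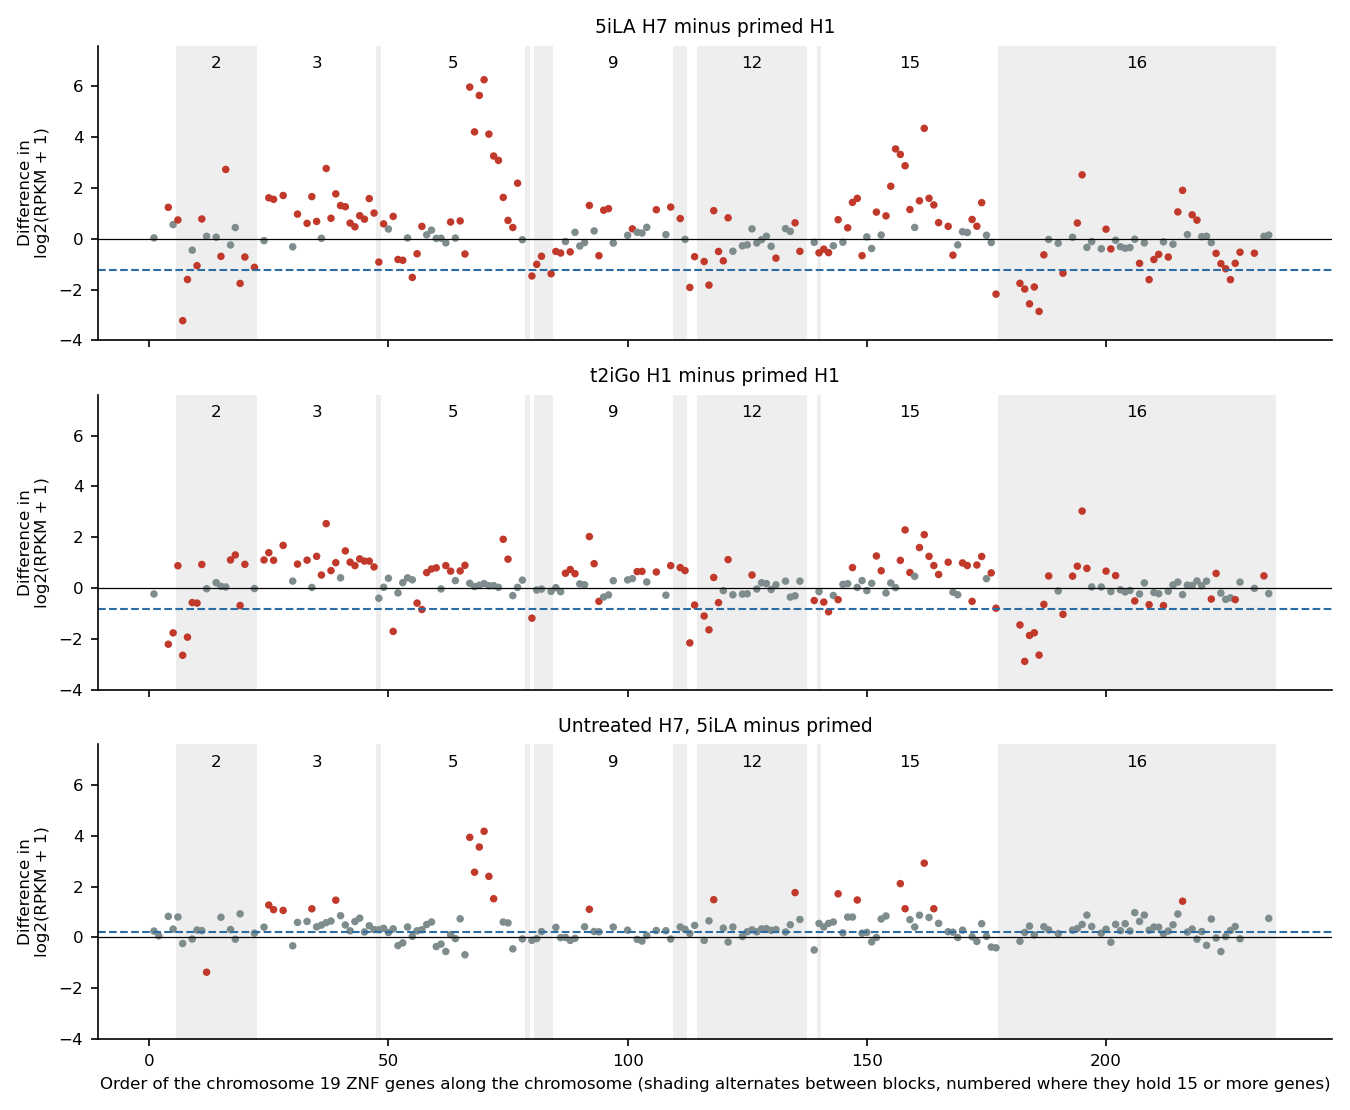
Difference in log2(RPKM + 1) of each tested gene, in order along chromosome 19, for 5iLA H7 minus primed H1, t2iGo minus primed H1 and untreated 5iLA minus primed H7. Red points passed limma's adjusted p of 0.05, or a log2 difference of 1 in the untreated pair, and the dashed line is the median of all genes (-1.23, -0.82 and 0.23). Block 3 lies almost wholly above 0 in the first 2 panels, and ZNF729, in block 5, is the highest point in the panels with 5iLA, at 4.17 in the untreated pair.

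The counts also differed by domain content. The 175 tested genes with a KRAB-like stretch had a median of 0.14 for 5iLA H7 minus primed H1, with 70 higher and 35 lower by limma, against -0.70, 5 higher and 20 lower for the 28 without one, which is still above the median of all genes. Of all genes, 7.74% were higher and 76.8% lower. For t2iGo minus primed H1 these were 0.21, 68 and 21, against -0.48, 4 and 14, beside 8.77% and 63% of all genes. In untreated H7 the medians were 0.33 with and 0.21 without the stretch. Genes with more fingers had the larger differences, with r between finger count and difference of 0.43, 0.34 and 0.30 in those 3 comparisons, as a description across genes. Of the 13 genes of the 5iLA pattern, 10 had the stretch, and their finger counts ran from 12 to 39. The 18 tested genes with at least 50% GC had 0 higher and 16 lower in 5iLA H7 and 0 higher and 13 lower in t2iGo H1 against primed H1, beside the same shares of all genes. Their medians of -1.61 and -1.28 lay below those of all genes.

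The comparison of the CCNE1 shRNAs with control asked whether these genes respond to the knockdowns. By limma 0 of 203 passed for pCCNE1 minus control, for uCCNE1 minus control and for pCCNE1 minus uCCNE1, beside 0% of all genes in each. An unadjusted limma p under 0.05 was met by 7, 8 and 2 of the 203 (3.45%, 3.94% and 0.985%), beside 14.8%, 10.2% and 4.09% of all genes. The medians were -0.03, -0.06 and 0.03, against -0.15, -0.14 and -0.02 for all genes. Lowest in p for pCCNE1 were ZNF787 at -0.71 ± 0.19, ZNF574 at -0.60 ± 0.18 and ZNF581 at -0.74 ± 0.23 (limma, adjusted p = 0.200, 0.203 and 0.203). With uCCNE1 the same 3 were at -0.62 ± 0.19, -0.52 ± 0.18 and -0.72 ± 0.23 (limma, adjusted p = 0.351, 0.390 and 0.360). All 3 are GC-rich, and r with GC content was -0.53 over the 203 genes for pCCNE1 minus control, against -0.49 over all genes. The part of base composition was not tested. In the other direction stood ZNF221 at 0.36 ± 0.16 for pCCNE1 (limma, adjusted p = 0.339) and ZNF69 at 0.46 ± 0.18 for uCCNE1 (limma, adjusted p = 0.432).

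Whether a CCNE1 shRNA acts differently in the naive media than in primed cells was tested with a separate term. For pCCNE1 0 of 203 genes passed, beside 0.107% of all genes higher and 0.116% lower, and for uCCNE1 0 passed, beside 0.0495% higher and 0.107% lower (limma). An unadjusted limma p under 0.05 was met by 3 and 2 of the 203, beside 6.69% and 4.87% of all genes. ZNF414 had the smallest p in both, at 1.27 ± 0.25 and 0.92 ± 0.25 (limma, adjusted p = 0.165 and 0.495). In primed H1 it was at 1.69 and 2.43 RPKM with pCCNE1 and uCCNE1 shRNA and 5.43 RPKM with control, while t2iGo H1 had at most 0.0646 RPKM and 5iLA H7 0.217 to 0.322 RPKM.

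Corepressors and heterochromatin proteins through which KRAB zinc finger proteins work were described as a list of 30 genes. In 5iLA H7 against primed H1, 2 were higher and 26 lower by limma, beside 7.74% and 76.8% of all genes. In t2iGo against primed H1 it was 1 and 19, beside 8.77% and 63%, a share lower close to that of all genes, with medians of -1.51 and -0.92 beside -1.23 and -0.82 for all genes. In untreated H7, 2 were higher and 1 lower by the threshold, beside 11% and 3.94% of all genes, with a median of -0.12 beside 0.23. TRIM28, the corepressor itself, was at 40.4, 28.7 and 56.6 RPKM in 5iLA H7, 16.2, 29.3 and 41.8 RPKM in t2iGo H1 and 139, 170 and 208 RPKM in primed H1. Untreated H7 had 33.2 RPKM in 5iLA and 42.3 RPKM in primed cells. CBX5, a heterochromatin protein, was at 8.54, 5.09 and 6.33 RPKM in 5iLA H7, 37.0, 38.3 and 38.3 RPKM in t2iGo H1 and 47.1, 27.9 and 38.5 RPKM in primed H1, with the 5iLA libraries below all others of that table (-2.37 for 5iLA H7 minus t2iGo H1; limma, adjusted p = 3.08e-06). The genes higher in 5iLA H7 were DNMT3L, which was also among the naive markers, and ZFP57, a KRAB zinc finger gene of another chromosome that guards imprints. ZFP57 was at 8.52, 10.1 and 12.2 RPKM in 5iLA H7, 0 to 0.171 RPKM in t2iGo H1 and 0.254 to 0.915 RPKM in primed H1, and untreated H7 had 4.95 RPKM in 5iLA and 0.288 RPKM in primed cells.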

How the data were processed

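Values were analysed as deposited: the authors give 1 RPKM value per RefSeq gene in 2 tables, of 9 shRNA libraries and 2 untreated libraries. TopHat2 2.3.0, Cufflinks 1.2.1 and the hg19 build are named per the submitters' processing notes, with no roles or settings. RPKM keeps no read totals, so depth was estimated from the steps of low values. Genes with a mean of at least 1 RPKM were tested on log2(RPKM + 1), a scale that understates changes of low genes. Culture differences and shRNA differences came from limma 3.58.1 (R 4.3.3, intensity trend) fitted to the 9 libraries jointly with terms for culture and for shRNA (4 residual degrees of freedom). The naive minus primed differences of shRNA effects averaged 5iLA and t2iGo and left 2. Benjamini-Hochberg adjustment covered all 12116 genes, at 0.05. With 1 library per group, shRNAs or cultures stand in for replicates, so p-values measure only the spread between these libraries. The untreated pair was described at a log2 difference of 1. In simulated data with 12116 genes, 100 were changed by 1 on the log2 scale and 100 by 2. The t2iGo minus primed step recovered 58% and 94% of them, with 10 false calls, and the pCCNE1 minus control step 53% and 94%, with 5. Far more genes differed in the real t2iGo comparison, with 71.8% called, so these shares need not hold for it. Order, lengths, GC content and finger and KRAB-like patterns came from GENCODE 29 and RefSeq on GRCh38, with 230 of the 235 genes matched by RefSeq identifier and 5 by symbol, and promoters from RefSeq (206 matched). The genes named are the largest called differences per comparison (10 or 5 per direction, or the 3 of smallest p), the 10 of highest mean, the 10 largest untreated differences per direction, 23 genes always named where members and the extremes of blocks. Members and lists were chosen with earlier results of these data known, and the 13 genes of the 5iLA pattern after their values were seen. Alternatives changed the pseudocount, filter, scaling, trend, terms, libraries and GC trend.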

Additional observations from a re-analysis of the deposited data

Results flagged for a closer look

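The share of summed RPKM over all entries held by the chromosome 19 ZNF genes moved in opposite directions in the H7 pair and in the shRNA table. It was 0.455% in untreated 5iLA H7 and 0.541% in untreated primed H7, a difference of -0.0865 percentage points, whereas t2iGo exceeded primed H1 by 0.319 to 0.382 points for each of the 3 shRNAs. Non-coding entries took 34.7% of summed RPKM in untreated 5iLA H7 and 13.7% in untreated primed H7. The difference between the pairs was not tested, nor was the part of the non-coding entries.

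ZNF350 had an untreated 5iLA minus primed H7 log2 difference of 1.72, while t2iGo minus primed H1 was at -0.46, with every t2iGo library below every primed H1 library. Relative to the median of all genes that is 0.36, so the opposite direction holds for the values as deposited and not after that shift is taken into account. The difference between these effects was not tested, and they compare different media and lines.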

How the results depend on the processing

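Scaling decides how many chromosome 19 ZNF genes were called in t2iGo minus primed H1. Against 107 in the values as deposited (72 higher, 35 lower), 168 (157 and 11) were called with libraries scaled to the same sum over coding genes, 163 (150 and 13) with median-ratio scaling and 164 (152 and 12) with quantile normalization. The share of all genes called was 71.8%, 69.8%, 66.7% and 67.1%. The untreated pair had 22 genes past a log2 difference of 1, beside 15% of all genes. It had 53 past 1.5-fold and 36 with a pseudocount of 0.1 RPKM, for which the share of all genes is not given here. Leaving out each shRNA's libraries gave 78 to 95 genes for t2iGo minus primed H1, 106 to 119 for 5iLA H7 minus primed H1 and 63 to 79 for 5iLA H7 minus t2iGo H1, against 107, 130 and 98. The share of all genes called fell too, to 62.1%, 76.8% and 37% without the uCCNE1 libraries, against 71.8%, 84.6% and 55%. The shRNA comparisons stayed at 0 without each culture in turn. With coding genes as denominator the share of these genes was 1.08% in 5iLA H7 and 0.774% in t2iGo H1, against 0.808% and 0.632% over all entries, and it was 0.696% in untreated 5iLA H7 and 0.627% in untreated primed H7. Without the 5 members of highest mean the share over all entries was 0.649% in 5iLA H7, 0.566% in t2iGo H1, 0.253% in primed H1, 0.397% in untreated 5iLA H7 and 0.480% in untreated primed H7. With the GC trend and median shift removed, an alternative chosen after seeing the data, ZNF580 turned to 0.14 and ZNF787 to 0.39 for t2iGo minus primed H1. The cause was not tested for any of these. No paired analysis was possible because each group has 1 library and the labels carry no replicate numbers, though the shRNA term already sets libraries of 1 shRNA against each other. Without that term 107, 129 and 100 genes were called in the 3 culture comparisons, and the share of all genes is not given here. Depth limits genes of low level, and the lowest values of ZNF787 and ZNF581 rest on an estimated 4.05 and 8.32 reads.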
